A study of Mus musculus with 8 samples.

Results

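The imprinted growth-control genes described here were chosen by name: Meg3, Rtl1, Dlk1, H19, Igf2, Peg3, Mest, Cdkn1c, Plagl1 and Grb10. The rule used gene names and no cut on the values, but earlier results of these data were known when the names were chosen. Of the 10 genes, 9 were measured among 15111 genes, and Igf2 was not analysed here. RNA was sequenced from primary dermal fibroblasts of tamoxifen-fed adult mice after 72 h of culture on fibronectin in serum replacement medium, without serum. Fibroblasts of TGFβ1FKO mice (Tgfb1fl/fl:Col1a2-CreERT, 4 libraries) were compared with those of control mice (Tgfb1fl/fl without Cre, 4 libraries). Both groups therefore carried the floxed Tgfb1 alleles and received tamoxifen. In TGFβ1FKO mice the Cre recombinase is driven by the promoter of Col1a2, a fibrillar collagen gene, and becomes active with tamoxifen, and the control mice do not control for Cre itself. The comparison asked what the loss of fibroblast-derived TGFβ1 does to gene expression in these cells.

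Imprinted genes are transcribed mainly from the maternal or mainly from the paternal copy, according to DNA methylation laid down in the germ line. Many act on body and organ size. Paternally expressed members such as Igf2, Mest, Peg3, Dlk1 and Rtl1 tend to promote growth, whereas maternally expressed members such as H19, Cdkn1c and Grb10 tend to restrain it. Plagl1 is paternally expressed and codes for a factor that halts the cell cycle. Most of these genes are high in fetal mesenchyme and decline after birth. The sequencing did not separate the parental copies, so the values below are totals over both copies and hold nothing on imprinting itself.

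The libraries held 16988998 to 21806579 reads on the listed genes in control fibroblasts and 17445002 to 23071528 in TGFβ1FKO fibroblasts. Tgfb1 fell from 1374 ± 85.4 to 277.3 ± 42.5 normalised counts (SD, n = 4 per group), with a log2 fold change of -2.31 and a limma adjusted p of 1.53e-07. All 10 fibroblast markers were present and none passed a limma p of 0.05. Markers of other cells moved with the genotype. Of 7 Schwann cell markers 6 were measured, all lower in TGFβ1FKO and 3 of them called by limma, with summed normalised counts of 259 to 824 in control and 72.5 to 123 in TGFβ1FKO libraries. All 8 endothelial markers had a lower mean log2 value (sums of 533 to 822 against 521 to 553, which overlap), with none called by limma and 1 at a limma p under 0.05. Of the keratinocyte markers 3 of 4 measured were higher at a limma p under 0.05 (147 to 205 against 225 to 292), while Krt5, Krt14 and Krt1 were not analysed here. Of 12 muscle markers 4 were measured (597 to 1006 against 728 to 945), and the defining Myod1, Myf5, Myog and Pax7 were not analysed here. Measured were 3 of 8 adipocyte, 5 of 6 pericyte, 3 of 6 macrophage and 3 of 6 melanocyte markers, of which 1, a pericyte marker, was lower at a limma p under 0.05. The part of these markers in the results below was not tested, and in such bulk samples fewer cells of a type and less RNA per cell cannot be told apart.

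All values are normalised counts, meaning reads scaled by each library's size factor. A gene was called changed at a limma adjusted p under 0.05 together with an absolute log2 fold change over 0.6. No member was called, against 0.086% of all 15111 genes, of which 0.0794% were called lower. On the recovered reads edgeR and DESeq2 also called 0 members, against 0.132% and 0.371% of all genes. Of the 9 members 8 had a lower mean log2 value in TGFβ1FKO, where 49.1% of all genes did, and the median log2 fold change of the members was -0.48 against 0.003 over all genes. At an unadjusted limma p under 0.05 there were 5 members, Meg3, Plagl1, Mest, H19 and Cdkn1c, all lower, whereas 7.46% of all genes passed that p and 3.87% were lower. No member had groups without overlap, which 3.79% of all genes had, 2.1% with TGFβ1FKO lower. Because the members were chosen with earlier results of these data known, these counts and the median are only a description. As nothing states that the libraries of a group came from separate mice, the p-values measure only the spread between these libraries, which may be technical.

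**Figure D1:**
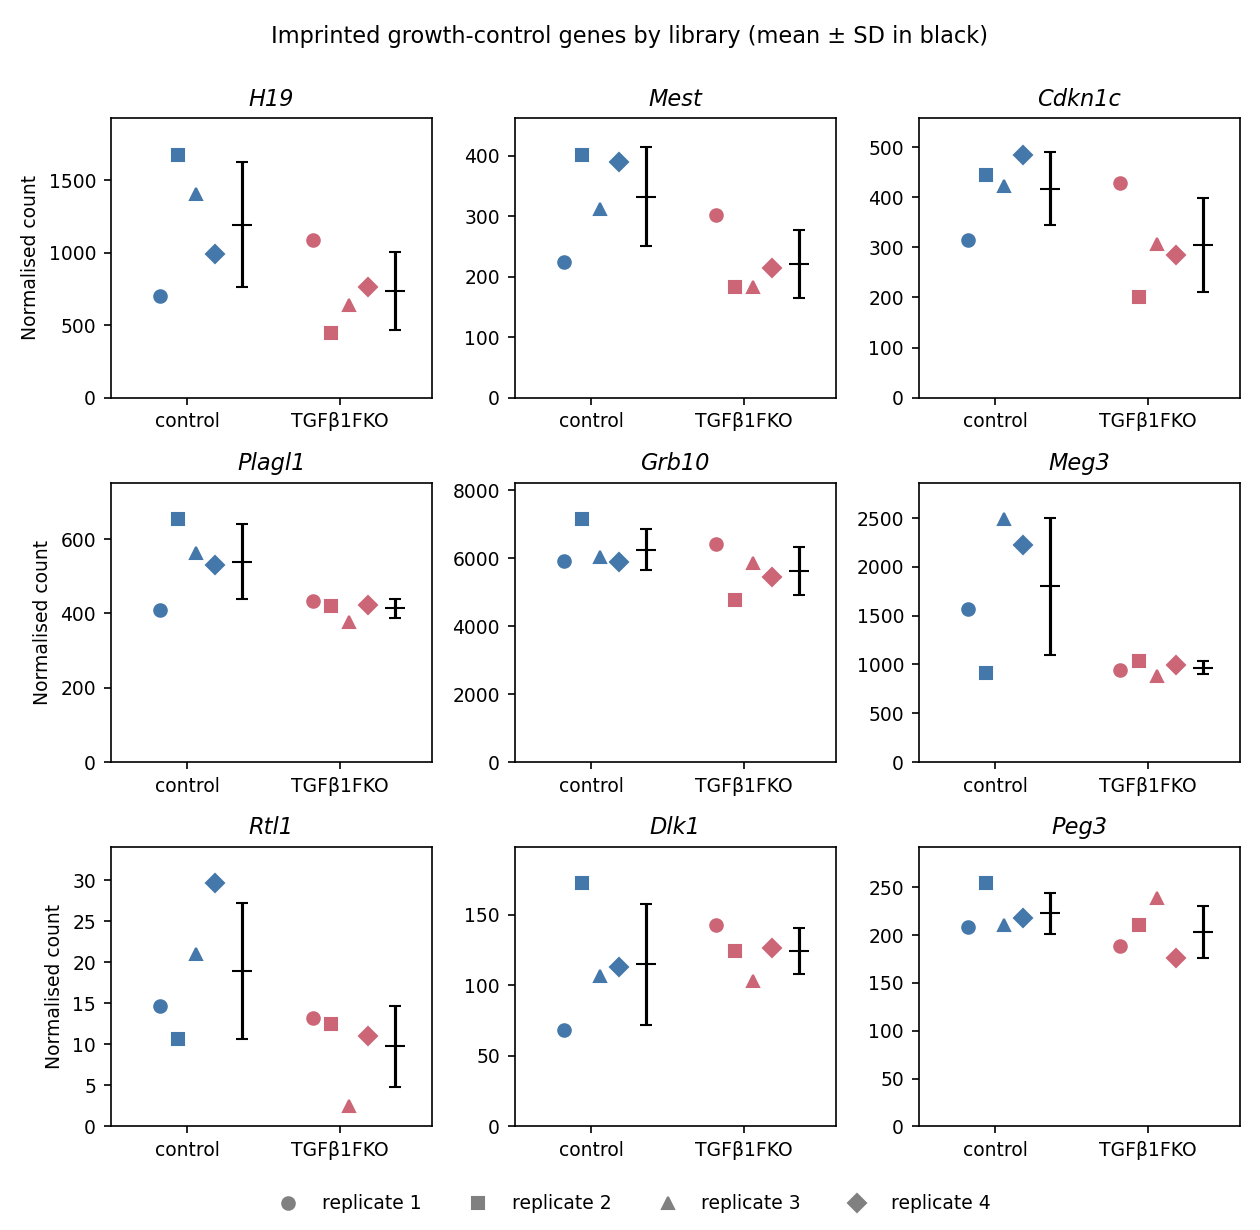
Normalised counts of the 9 measured genes in each library (y axis, linear from 0), with control libraries in blue, TGFβ1FKO libraries in red, a symbol for each replicate number, and the mean ± SD of 4 libraries in black. The groups overlapped for every gene, and the 4 TGFβ1FKO values of Meg3 and of Plagl1 lay close together while the control values were spread.

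H19 is a maternally expressed long non-coding RNA that shares its control region and enhancers with Igf2, and it is the host of miR-675. It lies on the minus strand at chr7:142575529-142578143 (GRCm38, GENCODE M21), and both mature miR-675 sequences lie in an exon. They are shown, from RefSeq on GRCm38.p6, because they are the part of H19 with a direct action on other transcripts, with the seed (bases 2 to 8) in capitals. The libraries were made from poly(A) RNA, so the miRNAs were not measured.
mmu-miR-675-5p: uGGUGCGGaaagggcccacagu
mmu-miR-675-3p: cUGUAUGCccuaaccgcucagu

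H19 had 699, 1678, 1404 and 995 normalised counts in control replicates 1 to 4 and 1090, 444, 639 and 767 in TGFβ1FKO replicates 1 to 4. Control replicates 1 and 4 lay inside the TGFβ1FKO range, and TGFβ1FKO replicates 1 and 4 inside the control range. With replicate 1 of both groups set aside, the other 6 libraries were separated by genotype. The same held without control replicates 1 and 4, or without TGFβ1FKO replicates 1 and 4. The means were 1194 ± 433 and 735 ± 271 (SD, n = 4 per group), which put TGFβ1FKO at 61.6% of control. The log2 fold change was -0.70 (95% interval -1.29 to -0.11), with a limma p of 0.0245 and an adjusted p of 0.632. The two-sided exact permutation test of the difference in means gave p = 0.171. Only 0.735% of the 11561 genes with a mean of 50 or more normalised counts varied more than H19 within the groups.

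Cdkn1c and Plagl1 act on the cell cycle. Cdkn1c (chr7:143458339-143461050, minus strand) codes for the cyclin-dependent kinase inhibitor p57Kip2, and Plagl1 (chr10:13060504-13131694, plus strand) for a zinc finger transcription factor that stops proliferation. Cdkn1c had 315, 444, 422 and 485 normalised counts in the control libraries and 428, 199.9, 306 and 285 in the TGFβ1FKO libraries. TGFβ1FKO replicate 1 was again among the controls, and the other 3 lay below the lowest control. The means were 417 ± 72.6 and 304 ± 94.0 (SD, n = 4 per group), and the log2 fold change was -0.48 (95% interval -0.90 to -0.07), with a limma p of 0.0264, an adjusted p of 0.637 and an exact permutation p of 0.0857.

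Plagl1 had 410, 654, 563 and 530.4 normalised counts in the control libraries and 433, 420.5, 378 and 423 in the TGFβ1FKO libraries. Here control replicate 1 was the library out of place: it lay among the TGFβ1FKO values, and the other 3 controls were above all of them. The means were 539.6 ± 101 and 414 ± 24.4 (SD, n = 4 per group), or 76.6% of control. This gave a log2 fold change of -0.37 (95% interval -0.62 to -0.11), with a limma p of 0.00895, an adjusted p of 0.536 and an exact permutation p of 0.114.

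Grb10 (chr11:11930508-12038683, minus strand) codes for an adaptor that binds the activated insulin and IGF1 receptors and dampens their signal. It was the member with the most RNA per length, at 687 ± 66.9 normalised counts per kilobase of exon in controls. Its values were 5916, 7148, 6023 and 5878 normalised counts in control and 6415, 4761, 5843 and 5448 in TGFβ1FKO libraries. Control replicate 2 stood above the other controls, and TGFβ1FKO replicate 1 was the only one of its group above the lowest control. The means were 6242 ± 608 and 5617 ± 695 (SD, n = 4 per group), with a log2 fold change of -0.16 (95% interval -0.35 to 0.04), a limma p of 0.103 and an exact permutation p of 0.229. A decrease by more than 0.35 on the log2 scale lay outside this interval.

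Mest and Peg3 are paternally expressed. Mest codes for an enzyme-like protein of the endoplasmic reticulum and lies at chr6:30723547-30748465 on the plus strand, with an exon that overlaps one of Copg2 on the opposite strand. As the library kit kept no strand, reads there cannot be assigned. An intron of Mest holds miR-335, shown for the same reason as miR-675, with the seed in capitals.
mmu-miR-335-5p: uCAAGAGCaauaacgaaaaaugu
mmu-miR-335-3p: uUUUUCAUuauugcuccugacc

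Mest had 225, 402, 312 and 390.1 normalised counts in the control libraries and 302, 182, 183 and 215 in the TGFβ1FKO libraries. TGFβ1FKO replicates 2, 3 and 4 lay below every control, and replicate 1 lay between control replicates 1 and 3. The means were 332 ± 82.0 and 220.5 ± 56.5 (SD, n = 4 per group), and the log2 fold change was -0.58 (95% interval -1.00 to -0.16). The limma p was 0.0102, the adjusted p 0.536 and the exact permutation p 0.0571. Copg2 itself, a coat protein subunit gene, had 742 ± 56.0 and 738.5 ± 39.9 normalised counts, with a log2 fold change of -0.005 and a limma p of 0.948.

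Peg3 (chr7:6703892-6730431, minus strand) codes for a large zinc finger protein tied to TNF and p53 signalling. It had 208, 254, 211 and 218 normalised counts in the control libraries and 189, 210.2, 238 and 176 in the TGFβ1FKO libraries. The groups were mixed, and TGFβ1FKO replicate 3 was higher than all controls but one. The log2 fold change was -0.14 (95% interval -0.39 to 0.11), with a limma p of 0.259 and an exact permutation p of 0.286.

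Meg3, Rtl1 and Dlk1 share the Dlk1-Dio3 domain on chromosome 12. In this domain Dlk1, Rtl1 and Dio3 are expressed from the paternal copy, and Meg3, Rian and Mirg, non-coding RNAs in the same direction along the chromosome, from the maternal copy. Meg3 (chr12:109541001-109571726, plus strand) is a long non-coding RNA. Rtl1 (chr12:109589193-109600330, minus strand) is a protein-coding gene derived from a retrotransposon. Its exons lie opposite 11 mature miRNA sequences on the plus strand, of which the 2 of miR-127 are shown because maternal miRNAs of this antisense transcript cut Rtl1 RNA. The 2 of miR-770 in an exon of Meg3 are shown beside them. Capitals mark the seed, and no seed was shared among the mature miRNAs inside the members.
mmu-miR-770-5p: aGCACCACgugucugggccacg
mmu-miR-770-3p: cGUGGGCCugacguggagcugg
mmu-miR-127-5p: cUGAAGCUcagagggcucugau
mmu-miR-127-3p: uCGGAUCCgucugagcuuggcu

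Meg3 had 1568, 913, 2490.5 and 2224 normalised counts in control replicates 1 to 4 and 947, 1037, 887 and 998 in TGFβ1FKO replicates 1 to 4. Control replicate 2 lay inside the TGFβ1FKO range, and the other 3 controls were above every TGFβ1FKO library. The highest control was 2.73 times the lowest, whereas the TGFβ1FKO libraries differed by at most 1.17 times. The means were 1799 ± 707 and 967 ± 65.0 (SD, n = 4 per group), or 53.8% of control. This gave a log2 fold change of -0.80 (95% interval -1.30 to -0.29), with a limma p of 0.00457, an adjusted p of 0.460 and an exact permutation p of 0.114. Without control replicate 2 the log2 fold change was -1.09 and the limma adjusted p 0.0140, so that this 1 library decided whether Meg3 was called.

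Rtl1 had few reads, 3 to 30 per library. Its normalised counts were 14.6, 10.6, 21.1 and 29.6 in the control and 13.2, 12.4, 2.49 and 11.1 in the TGFβ1FKO libraries. Control replicates 3 and 4 were the highest, as for Meg3, and TGFβ1FKO replicate 3 was at the floor of 3 reads. The log2 fold change of -0.98 had a 95% interval of -2.01 to 0.04, a limma p of 0.0593 and an exact permutation p of 0.143. Leaving out 1 library at a time gave -1.21 (without control replicate 2) to -0.50 (without TGFβ1FKO replicate 3, limma p 0.195). In 3 of these fits the limma p was under 0.05. The difference did not pass the test with all libraries, and reads of the antisense miRNA host would count here as well.

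Dlk1 (chr12:109452823-109463336, plus strand) codes for a membrane protein with EGF-like repeats that holds back adipocyte differentiation. It had 68.0, 172, 106 and 113 normalised counts in the control libraries and 143, 124, 103 and 126 in the TGFβ1FKO libraries. All TGFβ1FKO values lay inside the wide control range, which ran from replicate 1 to replicate 2. The means were 115 ± 43.0 and 124 ± 16.4 (SD, n = 4 per group), with a log2 fold change of 0.18 (95% interval -0.31 to 0.67), a limma p of 0.445 and an exact permutation p of 0.686. Dlk1 was the only measured member with a higher mean in TGFβ1FKO, and without control replicate 1 its log2 fold change was -0.046.

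The other genes of the domain were less spread than Meg3. Rian, which carries small nucleolar RNAs, had 4018, 3679, 4597 and 4231 normalised counts in control and 3468, 3529, 4024 and 3594 in TGFβ1FKO libraries, with a log2 fold change of -0.18 and a limma p of 0.0292. Mirg, a host of many miRNAs, had 79.1, 79.7, 104 and 127 in control and 77.0, 64.2, 78.1 and 77.6 in TGFβ1FKO libraries, so that its groups did not overlap, though 2 controls were barely above the highest TGFβ1FKO value. Its log2 fold change was -0.37, with a limma p of 0.0545 and an exact permutation p of 0.0286, the smallest that 4 against 4 libraries allow. Dio3, the thyroid hormone deiodinase at the far end of the domain, had 41.5 ± 10.3 and 37.6 ± 13.2 (SD, n = 4 per group), with a log2 fold change of -0.17 and a limma p of 0.538.

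**Figure D2:**
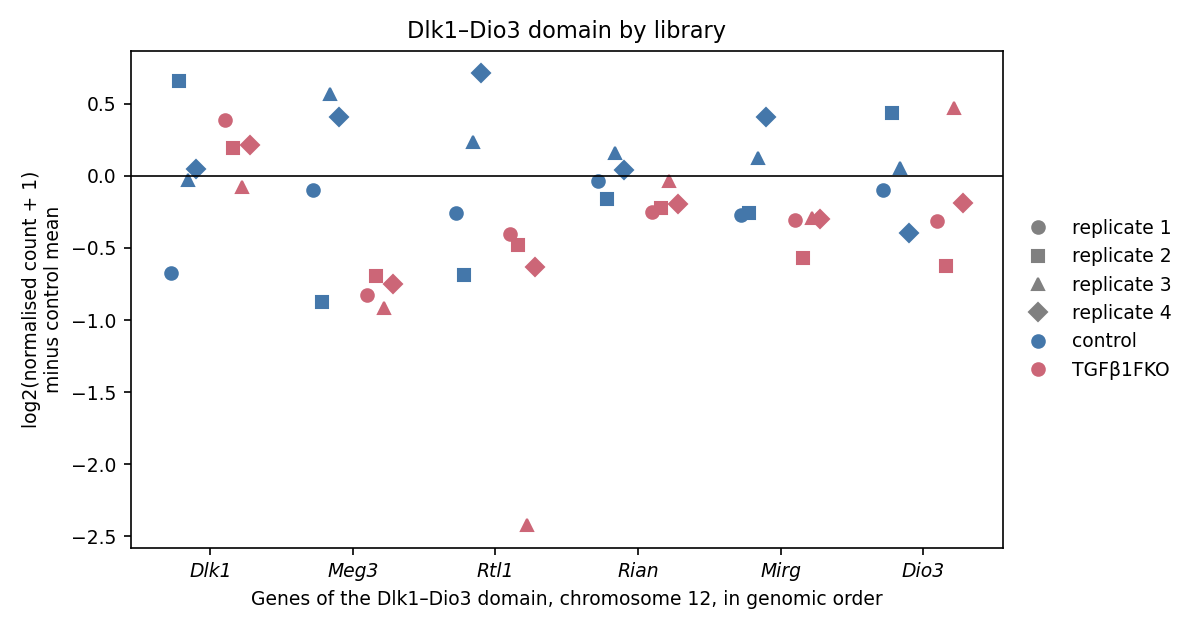
For each of 6 genes of the Dlk1-Dio3 domain, the y axis gives the log2(normalised count + 1) of each library minus the control mean of that gene, with control libraries in blue, TGFβ1FKO libraries in red and a symbol for each replicate number. Control replicates 3 and 4 were the 2 highest for Meg3, Rtl1, Rian and Mirg, and the low Rtl1 point of TGFβ1FKO replicate 3 rests on 3 reads.

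Whether neighbours in a cluster moved together was examined over the 8 libraries for 9 pairs. Among these pairs was also that of H19 and Meg3, which lie on chromosomes 7 and 12. Values of a pair share the size factor of each library. Meg3 and Rtl1 had Pearson's r = 0.74 (permutation p = 0.0150) and Spearman's rho = 0.90 (permutation p = 0.00456), with adjusted permutation p-values of 0.0674 and 0.0411 over the 9 pairs. Meg3 and Rian had r = 0.84 (permutation p = 0.0103, adjusted 0.0674) but rho = 0.48 (permutation p = 0.243), and Meg3 and Mirg had r = 0.81 (permutation p = 0.0265, adjusted 0.0796) and rho = 0.45 (permutation p = 0.268). Without control replicates 3 and 4 these r values were 0.50, 0.42 and 0.05, so each relation over all 8 leaned on those 2 libraries, that with Rtl1 included. Inside the control group r over 4 libraries was 0.89 for Meg3 and Rtl1, 0.96 for Meg3 and Rian and 0.77 for Meg3 and Mirg. Inside the TGFβ1FKO group r over 4 libraries was 0.81, -0.75 and -0.72 in the same order. There Meg3 differed by at most 1.17 times, and the lowest Rtl1 value rested on 3 reads. Meg3 and Dlk1, which are expressed from opposite parental copies, had r = -0.46 (permutation p = 0.267) and rho = -0.38 (permutation p = 0.3599). H19 and Meg3 had r = 0.27 (permutation p = 0.504) and rho = 0.10 (permutation p = 0.840). For the other 4 pairs, Peg3 with Zim1, Mest with Copg2, Sgce with Peg10 and Grb10 with Cobl, r ran from -0.39 to 0.51 and the lowest permutation p was 0.193.

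Over all 36 pairs of the 9 members, the 3 highest r values over the 8 libraries were those among H19, Mest and Cdkn1c. H19 and Cdkn1c both lie on distal chromosome 7, and Mest lies on chromosome 6. H19 and Mest had r = 0.88 (permutation p = 0.00454, adjusted 0.0431 over 36 pairs) and rho = 0.90 (permutation p = 0.00456, adjusted 0.0411). Mest and Cdkn1c had r = 0.90 (permutation p = 0.00357, adjusted 0.0431) and rho = 0.93 (permutation p = 0.00223, adjusted 0.0411). H19 and Cdkn1c had r = 0.88 (permutation p = 0.00479, adjusted 0.0431) and rho = 0.76 (permutation p = 0.0368, adjusted 0.147).

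With each group centred on its own mean, r was 0.81, 0.84 and 0.81 for the same 3 pairs, and without the 2 libraries farthest from the median it was 0.79, 0.88 and 0.79. Within groups the highest r of the 36 pairs was that of Dlk1 and Plagl1, at 0.97, though over the 8 libraries together it was 0.49 (permutation p = 0.232, adjusted 0.530) with rho = 0.60 (permutation p = 0.132, adjusted 0.397). Plagl1 followed Mest with r = 0.87 (permutation p = 0.00313, adjusted 0.0431) and rho = 0.86 (permutation p = 0.0107, adjusted 0.0643), and 0.75 within groups. Of 11560 genes, 0.355% had an r with H19 at least as high as that of Mest, and 0.346% an r with Mest at least as high as that of Cdkn1c. The same libraries were at the ends for many members: control replicate 1 was the lowest control for 6 of the 9, control replicate 2 the highest control for 6, and TGFβ1FKO replicate 1 the highest of its group for 7. Among the controls, Meg3 and Rtl1 went against this order, with control replicate 2 as their lowest. In the TGFβ1FKO group, replicate 1 was the highest for Rtl1 but not for Meg3.

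**Figure D3:**
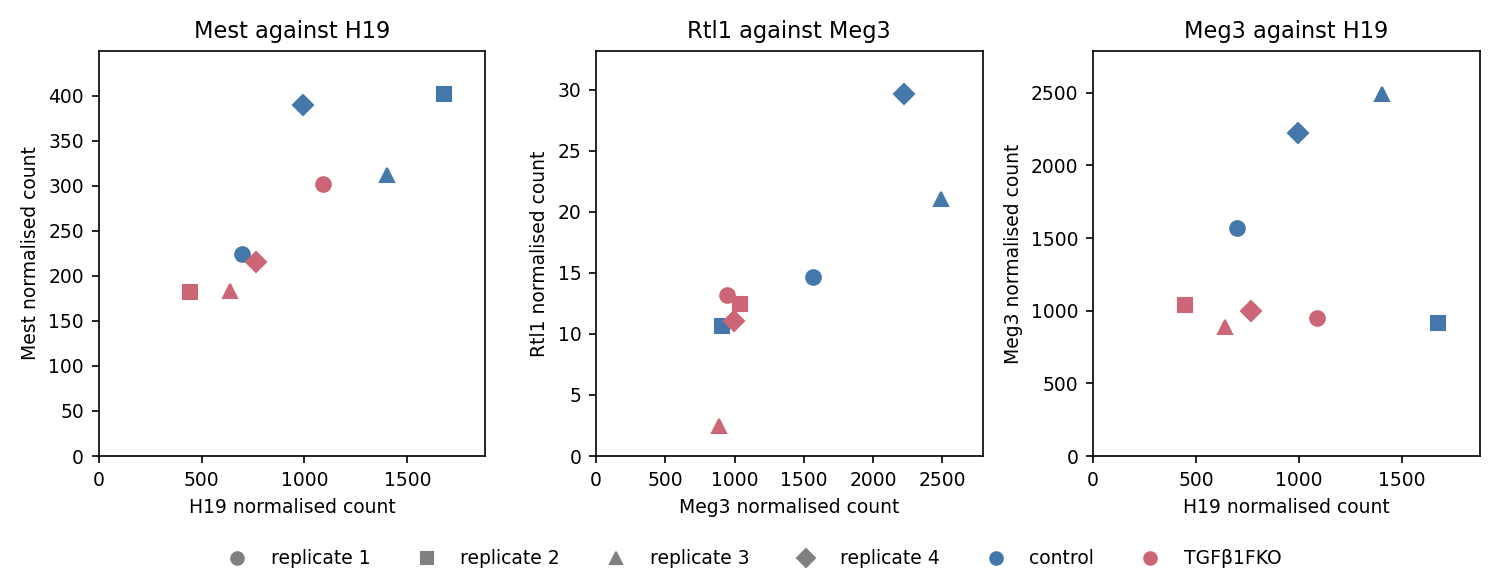
Normalised counts of pairs of genes, 1 point per library, with control in blue, TGFβ1FKO in red and a symbol for each replicate number. Mest increases with H19 in TGFβ1FKO and less steadily in control, where replicate 4 has less H19 but more Mest than replicate 3. Rtl1 is high in the 2 libraries with the most Meg3. Meg3 against H19 shows no common order, with control replicate 2 highest for H19 and low for Meg3.

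The levels of the members were set side by side as normalised counts per kilobase of exon in control fibroblasts. Grb10 at 687 ± 66.9 and H19 at 485 ± 176 came first, followed by Cdkn1c at 204 ± 35.6, Meg3 at 99.4 ± 39.1, Mest at 84.1 ± 20.8 and Plagl1 at 69.0 ± 12.9 (SD, n = 4 each). Ranges over the 8 libraries overlapped between every neighbouring pair of these 6. Dlk1 at 20.3 ± 7.61 and Peg3 at 16.7 ± 1.59 overlapped with each other but not with Plagl1, and Rtl1 was lowest at 2.99 ± 1.30, below all of them. By control mean, Grb10, H19 and Cdkn1c, named above as growth restrainers, came before the paternally expressed Mest, Dlk1, Peg3 and Rtl1. Plagl1, which codes for a factor that halts the cell cycle, came below Mest, and Igf2 was not analysed here. Exon lengths covered all annotated transcripts, whichever were in use, so the order is only a description.

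Imprinted genes beyond the members lay on both sides of control. Of 62 listed genes, members included, 47 were measured, 28 with a lower and 19 with a higher mean log2 value in TGFβ1FKO. Of these, limma, edgeR and DESeq2 called 0. At a limma p under 0.05 there were 8 lower and 2 higher, beside 3.87% and 3.59% of all genes, and 5 of the 8 lower were members. Without the members, 3 of 38 were lower and 2 higher at that p. Of these 38 genes 20 had a lower mean log2 value, and the median log2 fold change was -0.01, close to the 0.003 of all genes. Members included, the 23 measured genes listed as maternally expressed in mouse had a median of -0.07 with 14 lower. The 23 listed as paternally expressed, also with members, had a median of -0.05 with 14 lower. Which copy these genes used in these cells was not measured.

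Among imprinted genes outside the members, Tfpi2, a serine protease inhibitor of the matrix, had 250.3, 304, 304 and 268 normalised counts in control and 172, 236, 244 and 167 in TGFβ1FKO libraries, without overlap. Its log2 fold change was -0.47, with a limma p of 0.00427, an adjusted p of 0.459 and an exact permutation p of 0.0286. Blcap had 1185 ± 19.1 and 1091 ± 48.6 normalised counts, a log2 fold change of -0.12 and a limma p of 0.0438. Its groups also did not overlap, though the lowest control (1163.4) was barely above the highest TGFβ1FKO value (1159.6). Asb4, a subunit of ubiquitin ligases, was the only listed imprinted gene higher without overlap, at 8.12 ± 2.00 and 14.4 ± 1.59 normalised counts on 6 to 20 reads per library (log2 fold change 0.78, limma p 0.0269). Inpp5f, a phosphoinositide phosphatase gene, had a log2 fold change of 0.18 and a limma p of 0.0419.

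**Figure D4:**
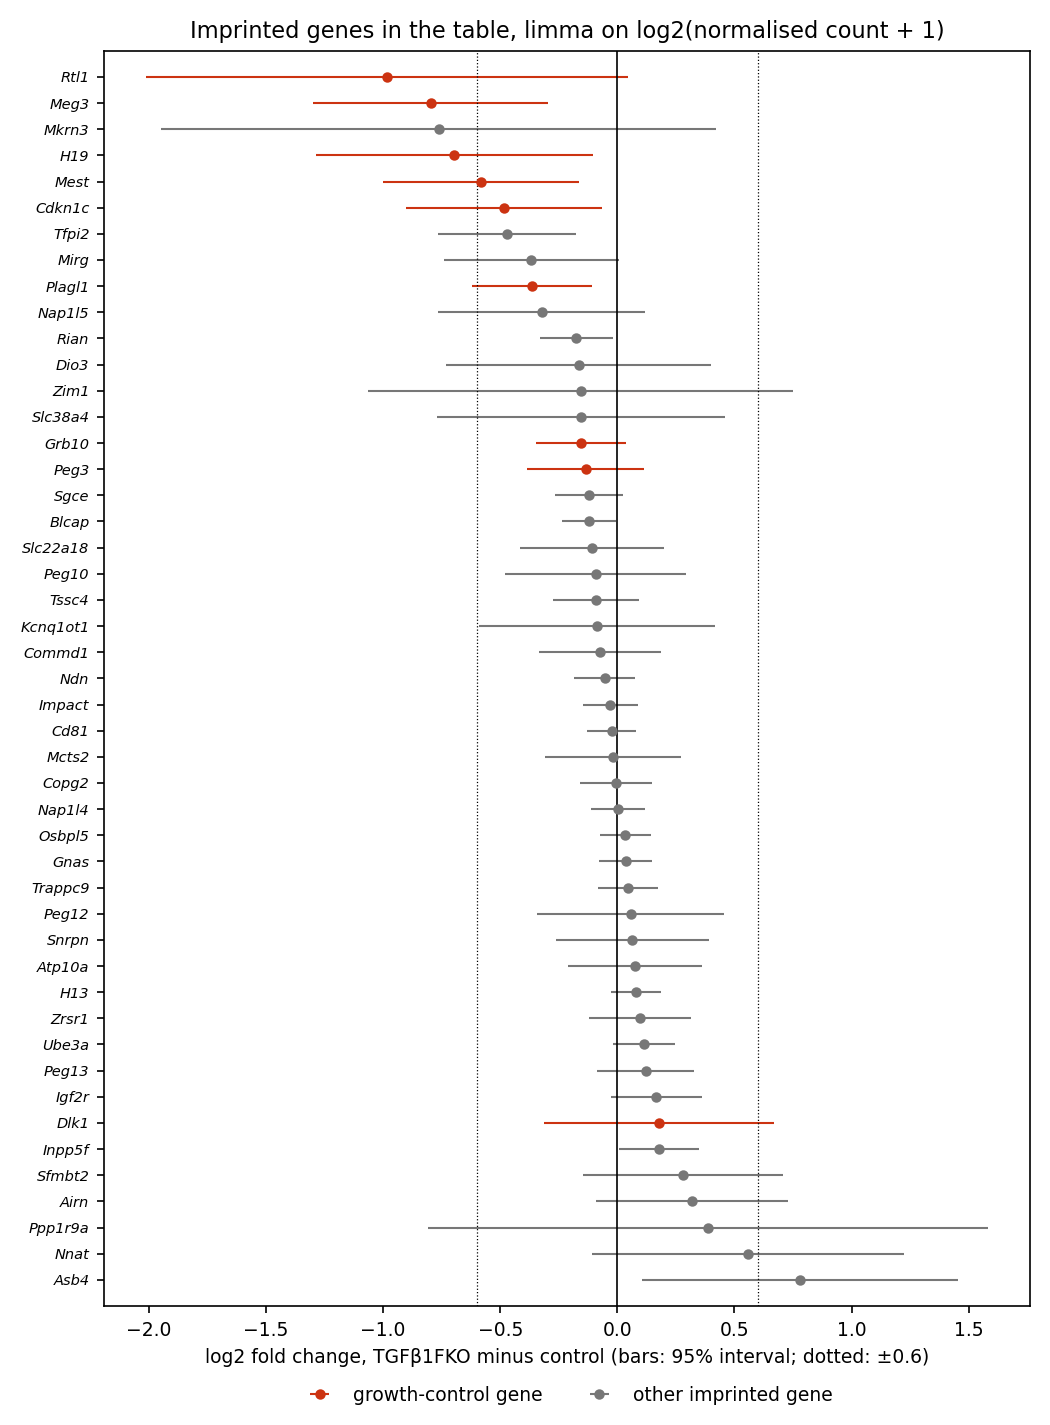
Log2 fold change (x axis, TGFβ1FKO minus control) with its 95% interval from limma for the 47 measured imprinted genes, the 9 growth-control genes in red and the others in grey, with dotted lines at 0.6 in either direction. Of the growth-control genes 8 lie left of 0, whereas the other genes lie on both sides, 20 to the left and 18 to the right.

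The partners through which the members act were counted next. Of 20 listed partners, all measured, 15 had a higher and 5 a lower mean log2 value in TGFβ1FKO, none was called by limma, and the median log2 fold change was 0.12. At an unadjusted limma p under 0.05 there were 4 higher and 1 lower, beside 3.59% and 3.87% of all genes, and 1 partner had groups without overlap, beside 3.79%. Igf1r, the receptor that Grb10 binds and that transmits the Igf2 signal, had 2235, 2466, 2194 and 2346 normalised counts in control and 2551, 2669, 2799 and 2620 in TGFβ1FKO libraries, without overlap. Its log2 fold change was 0.20 (95% interval 0.09 to 0.32), with a limma p of 0.00247, an adjusted p of 0.394 and an exact permutation p of 0.0286. Insr, the insulin receptor, had a log2 fold change of 0.13 (limma p 0.0863), and Igf2r, the imprinted receptor that clears Igf2, of 0.17 (limma p 0.0879).

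The RNA-binding proteins of the IGF2BP family bind Igf2 and H19 RNA. Igf2bp1 had 29.6 ± 6.69 and 49.4 ± 12.2 normalised counts (SD, n = 4 per group), with a log2 fold change of 0.71, a limma p of 0.0103 and an adjusted p of 0.536. Igf2bp3 had 169 ± 27.4 and 227 ± 46.7, with a log2 fold change of 0.42 and a limma p of 0.0183, and Igf2bp2 a log2 fold change of 0.10 and a limma p of 0.128. Of the cell cycle partners, Ccnd1, the cyclin of early G1, had 4797, 4881, 5676 and 6184 normalised counts in control and 5577, 9261, 6987 and 7102 in TGFβ1FKO libraries. TGFβ1FKO replicate 1, which was near the controls for H19, Mest and Cdkn1c, was among the controls for Ccnd1 too. The log2 fold change of Ccnd1 was 0.41, with a limma p of 0.00686 and an adjusted p of 0.510. Cdkn1b, a kinase inhibitor related to Cdkn1c, had a log2 fold change of -0.15 and a limma p of 0.0444, and Cdkn1a, the third of this family, one of 0.13 with a limma p of 0.0619.

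Genes that keep imprints through cell division were counted as a last list. Of 10 listed genes 8 were measured, with 3 lower, 5 higher, none called by limma and a median log2 fold change of 0.04. Zfp57 was the only one at a limma p under 0.05, which 7.46% of all genes passed, so 1 of 8 is near that share. It codes for a zinc finger protein that binds the methylated hexamer TGCCGC in imprinting control regions and brings in Trim28. It had 278, 224, 271 and 248 normalised counts in control and 178, 217, 200.1 and 213 in TGFβ1FKO libraries. Every TGFβ1FKO library was thus below every control, as for 2.1% of all genes. The log2 fold change was -0.33 (95% interval -0.56 to -0.11), with a limma p of 0.00704, an adjusted p of 0.510 and an exact permutation p of 0.0286. Trim28 had a log2 fold change of -0.003 (limma p 0.954) and Dnmt1, the maintenance methyltransferase, one of 0.11 (limma p 0.115).

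The hexamer that Zfp57 binds was looked for in the 250 bases before the transcription starts of the members, in RefSeq on GRCm38.p6. There were 14 windows for 7 of the 10 genes, and none for H19, Rtl1 or Cdkn1c. TGCCGC, read on both strands (GCGGCA on the opposite one), was found in 4 of these 14 windows, while 8.68% of all 32851 windows of that length held it. The 4 were 1 of Plagl1, 1 of 2 of Meg3 and 2 of 3 of Mest, and the last 2 are nearly the same stretch, with starts at 30737800 and 30737803, and hold the same 2 matches. No window of Dlk1, Peg3, Grb10 or Igf2 held it. 1 window for each of the 3 genes is printed 5′ to 3′ of the gene, all on the plus strand, with each match in capitals. The printed Mest window (chr6:30737803-30738052) held 2 matches and 14 CpG, the Plagl1 window (chr10:13090582-13090831) 1 match and 19 CpG, and the Meg3 window (chr12:109540746-109540995) 1 match and 10 CpG, where the median window held 6 CpG. A match of these letters is a description and not a binding site, and methylation was not measured.
Mest: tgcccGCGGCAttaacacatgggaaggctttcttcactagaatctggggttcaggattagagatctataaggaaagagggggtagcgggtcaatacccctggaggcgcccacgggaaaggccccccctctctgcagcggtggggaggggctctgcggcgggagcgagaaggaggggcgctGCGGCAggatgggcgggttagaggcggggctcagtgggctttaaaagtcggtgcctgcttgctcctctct
Plagl1: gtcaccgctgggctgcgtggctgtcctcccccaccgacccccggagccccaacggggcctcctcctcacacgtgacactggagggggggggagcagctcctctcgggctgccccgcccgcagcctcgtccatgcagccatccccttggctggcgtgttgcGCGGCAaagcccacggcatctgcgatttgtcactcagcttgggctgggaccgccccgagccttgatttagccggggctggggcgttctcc
Meg3: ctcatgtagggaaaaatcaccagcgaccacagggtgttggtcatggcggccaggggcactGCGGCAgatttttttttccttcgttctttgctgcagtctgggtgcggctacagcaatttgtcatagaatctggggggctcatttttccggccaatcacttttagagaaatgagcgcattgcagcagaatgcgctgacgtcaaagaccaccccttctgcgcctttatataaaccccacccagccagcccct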

How the data were processed

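Poly(A) RNA of 8 cultures was sequenced as paired 150-base reads from non-directional libraries. The submitters' processing notes name CASAVA 1.8, HISAT2 2.0.5, featureCounts 1.5.0-p3, R 4.3.2, DESeq2 1.42.0 and the build GRCm38. The authors deposited a signal of reads over the DESeq2 size factor plus 0.5, called normalised counts here, after leaving out genes with few reads (lowest sum over the libraries 41). The authors' own fold changes and p-values were not used.

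After subtraction of the 0.5, limma 3.58.1 (R 4.3.3, trend option) was run on log2(value + 1) of all 15111 genes, with Benjamini-Hochberg adjustment. This scale understates changes of low genes. Single values were compared with two-sided exact permutation tests. All values (100%) came out as whole reads within 0.02, and edgeR 4.0.16 and DESeq2 1.42.0 on these reads called 20 and 56 genes. A floor of 3 reads was used. It and the reads' precision cover counting error only, because duplicates from PCR are not separate molecules. No replicate pair was alike within counting noise (lowest chi-square over degrees of freedom 4.89).

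Samples were grouped by genotype from their labels. The members, lists, markers and pairs were chosen with earlier results of these data known, and the 36 member pairs after the values had been seen. All measured members are named, and other listed genes where they reached an unadjusted p of 0.05, had groups without overlap, shared a cluster with a member or shared a role with a gene so named. Coordinates are from GENCODE M21, which held 15098 of the genes, and sequences from RefSeq on GRCm38.p6. The limma script was tested on simulated data. Other tests, scalings, pseudocounts, filters, thresholds, a replicate block and leaving out each library were tried.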

Additional observations from a re-analysis of the deposited data

Results flagged for a closer look

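Grb10 in control replicate 2 stood apart from the other controls, with 7148 normalised counts against 5878 to 6023 in the other 3, a gap that passed Dixon's 95% limit for 4 samples. It was 1 of 18 groups of 4 libraries examined over the 9 members, and chance alone flags about 1 in 20 such groups. The same library was the highest control for Dlk1, H19, Peg3, Mest and Plagl1 and the lowest for Meg3 and Rtl1.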

How the results depend on the processing

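Over all genes, 13 were called. The number was 20 with edgeR and the deposited size factors, 22 with edgeR and TMM, 56 with DESeq2, 3 with at least 10 reads in every library and 25 at an adjusted p threshold of 0.1. Leaving out 1 library at a time gave 5 to 32. The members called and the imprinted genes called, each 0, ranged from 0 to 1 when 1 library was left out, the 1 being Meg3 without control replicate 2, and were 0 under every other alternative tried. The 5 members lower at an unadjusted p under 0.05 ranged from 3 (without control replicate 3) to 7 (without TGFβ1FKO replicate 1) and were 4 with DESeq2. Meg3, Mest and Plagl1 kept an unadjusted p under 0.05 in all 8 fits without 1 library, but H19 only in 4 and Cdkn1c only in 3 of them. The alternatives that change only a threshold leave these p-values as they are. Without control replicate 2 the log2 fold change of Meg3 was -1.09, and its adjusted p ranged from 0.0140 to 0.888 over the alternatives. The log2 fold change of Dlk1 ranged from -0.046 (without control replicate 1) to 0.40 (without control replicate 2). The cause of these differences was not tested. Rtl1 gave no value with at least 10 reads in every library.

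The labels number replicates 1 to 4 in both groups. Deviations from the group means of libraries with the same number correlated at 0.16, -0.13, 0.05 and 0.16. Values centred within groups of 4 cannot show whether libraries with the same number were handled together, and the labels state no pairing. With the replicate block, 31 genes were called, against 13 without it. Of the members 0 were called with the block, and 5 were lower at an unadjusted p under 0.05. Of the 4 control libraries and 4 TGFβ1FKO libraries, not every one correlated best with its own number.

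With 4 libraries per group, a difference the size of that of Peg3 or Grb10 was within the spread, and Rtl1 rests on 3 to 30 reads per library.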

Other observations

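H19 varied most over the 8 libraries among the members with a mean of 50 or more normalised counts (SD 0.63 on the log2 scale), and the genes whose log2 values followed it most closely among 11560 were Plce1 (r = 0.98), Fzd4 (0.97), Scpep1 (0.97), Pycard (0.96) and Cygb (0.95). These r values are the highest of many and are given as a description over 8 libraries, without a test. Because the genes were chosen by likeness to H19 in these libraries, their group differences and library order follow in part from that choice. Their limma p-values below are therefore no separate evidence. Cygb, which codes for cytoglobin, had 375, 711, 816 and 560.0 normalised counts in the control libraries and 545, 217, 389 and 336 in the TGFβ1FKO libraries, with a log2 fold change of -0.74, a limma p of 0.0142 and an adjusted p of 0.579. Pycard, an inflammasome adaptor gene, had a log2 fold change of -0.46 with a limma p of 0.0179, and Plce1, a phospholipase C gene, one of -0.49 with a limma p of 0.0405. Fzd4, a Wnt receptor gene, had a log2 fold change of -0.31 with a limma p of 0.0629, and Scpep1 one of -0.09 with a limma p of 0.1204. As for H19, control replicate 1 was the lowest control and TGFβ1FKO replicate 1 the highest of its group for all 5 of these genes.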
